A study of Drosophila melanogaster with 2 samples.

Results

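The vacuolar ATPase and autophagy genes described here are 54 of the 13945 protein-coding genes annotated on the 6 main chromosome arms of Drosophila melanogaster. They were chosen by name from the Ensembl annotation on dm6. The set holds 33 genes whose name starts with Vha, which encode the vacuolar proton pump, and 21 autophagy genes, namely 20 with an Atg number and ref(2)P, the fly counterpart of the autophagy receptor p62. A gene was called bound when a summit of the reproducible peak list lay within 500 bp of any of its annotated transcript starts.

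The data are chromatin immunoprecipitation followed by sequencing (ChIP-seq) of Max, the basic helix-loop-helix leucine zipper partner of Myc. Material was whole embryos of mixed sex, 0 to 24 h old, from a stable transgenic line in which GFP is fused to the C terminus of Max. The IP was made with an antibody against GFP on chromatin sonicated to 200 to 800 bp. All samples belong to 1 group of 2 biological replicates, numbered 2 and 3, and there is no second genotype, age or treatment, so every comparison below is between genes or between replicates.

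The authors deposited peak lists with a score and no read counts, so the depth of the libraries is unknown. The list of each replicate and the pooled list hold 30000 peaks each. The list thresholded on the irreproducible discovery rate (IDR) holds 4712 peaks, whose scores have a median of 136.4 between 87.0 and 1561.5, and these are exactly the 4712 highest-scoring pooled peaks. The even lengths of the other lists show a limit set on them and say nothing of yield. Rank 1 is the highest score of a list, and scores are set against each other only within a list. A whole embryo mixes all tissues and stages, so binding limited to a few cells may be missed, and a gene without a summit is not shown to be free of Max-GFP. Genes are not replicates of the embryos, and the 95% Wilson intervals given with shares cover counting error over genes only.

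The vacuolar ATPase has a peripheral V1 sector that splits ATP and a membrane V0 sector that carries protons. It acidifies lysosomes and endosomes in all cells, and fly epithelia such as the Malpighian tubule also carry it in the plasma membrane. Many fly subunits have several paralogous genes, and general knowledge of fly expression places some as ubiquitous and others as limited to testis, neurons or other tissues. Autophagy encloses cytoplasm in a membrane that then fuses with the lysosome. The Atg1 kinase complex starts it, a phosphatidylinositol 3-kinase marks the membrane, Atg9 and Atg2 bring lipids, and a pair of ubiquitin-like conjugation systems attach Atg8 to the membrane. In flies the bHLH-leucine zipper factor Mitf is known to drive genes of the pump and of lysosomes through E-box-type sites, and the palindrome CACGTG, the canonical E-box, is also the site that Max binds with its partners.

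The stretches of DNA that carry the summits of 6 members are printed to show what lies between a member's start and its neighbour. Each runs 5′ to 3′ in the direction of the member, was read from the Release 6 genome (the build of dm6), and lies outside every annotated transcript. A strip need not reach both starts. Capitals mark a motif match and lower case is all other sequence. The first is the strip between Atg12 and CG5645 at chr3L:12136707-12136957 on the plus strand, with the summit at base 102 and a DNA replication-related element (DRE, TATCGATA, the site of DREF) from base 196.
Atg12: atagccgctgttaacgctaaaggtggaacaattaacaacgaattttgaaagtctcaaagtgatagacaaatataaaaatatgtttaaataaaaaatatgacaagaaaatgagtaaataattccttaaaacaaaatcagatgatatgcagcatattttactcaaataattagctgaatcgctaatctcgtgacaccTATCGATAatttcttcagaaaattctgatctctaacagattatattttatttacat
The Atg2 strip at chr3L:2774008-2774244 on the plus strand lies between Atg2 and CG12093, has its higher summit at base 88 and holds none of the 6 motifs searched. It ends before the other Atg2 summit, at 2774299, and before the Atg2 start, at 2774338. Outside the strip, Atg2 has an Ohler 6 match (GGTATTTT) between 250 bp upstream and 50 bp downstream of its start.
Atg2: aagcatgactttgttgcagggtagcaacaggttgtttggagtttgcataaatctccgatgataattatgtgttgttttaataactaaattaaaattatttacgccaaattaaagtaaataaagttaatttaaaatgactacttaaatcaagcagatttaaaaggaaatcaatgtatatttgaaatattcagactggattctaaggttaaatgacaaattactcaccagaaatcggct
The strip of Vha100-1 at chr3R:29130973-29131192 on the plus strand lies between Vha100-1 and dgt6, has its summit at base 106 and also holds none of the 6 motifs. Outside the strip, Vha100-1 has an Ohler 1 match (GGTCACAC) in the same window around its starts.
Vha100-1: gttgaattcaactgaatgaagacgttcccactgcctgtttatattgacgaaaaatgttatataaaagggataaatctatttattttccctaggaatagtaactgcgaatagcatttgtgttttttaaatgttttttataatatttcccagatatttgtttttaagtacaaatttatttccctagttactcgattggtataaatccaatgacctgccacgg
Vha16-5, at chr2L:10737177-10737344 on the minus strand, has the summit at base 19, next to the start of CG12299.
Vha16-5: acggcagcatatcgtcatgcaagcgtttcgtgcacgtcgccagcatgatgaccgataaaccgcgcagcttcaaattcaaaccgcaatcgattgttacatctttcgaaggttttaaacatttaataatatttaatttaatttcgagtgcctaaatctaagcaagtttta
Vha68-1 and mTor face away from each other across chr2L:13004108-13004374, printed from the minus strand, with the summit at base 150 and an Ohler 7 motif (CATCNCTA) from base 232.
Vha68-1: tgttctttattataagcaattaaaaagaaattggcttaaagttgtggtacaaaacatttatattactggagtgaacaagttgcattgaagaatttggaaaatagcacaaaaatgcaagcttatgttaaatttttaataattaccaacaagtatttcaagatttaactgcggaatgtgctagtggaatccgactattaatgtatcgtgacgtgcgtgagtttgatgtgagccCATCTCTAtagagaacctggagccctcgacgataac
VhaAC45RP has no neighbour in reach, and its strip at chr3R:30166425-30166630 on the minus strand holds the E-box CACGTG from base 39, with the summit at base 57.
VhaAC45RP: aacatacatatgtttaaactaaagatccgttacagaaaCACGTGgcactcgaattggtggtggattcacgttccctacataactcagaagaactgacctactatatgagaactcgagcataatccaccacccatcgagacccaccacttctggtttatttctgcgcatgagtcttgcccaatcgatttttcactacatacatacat
Further E-box sites near starts of members are shown as 30 bases each. That of Vha55 at chr3R:12627756-12627785 on the minus strand lies in its 5′ UTR, that of Vha68-2 at chr2L:12975292-12975321 on the plus strand in an intron of Vha68-2, and that of Atg4a at chr2L:1080715-1080744 on the plus strand in the 3′ UTR of ast. In Vha68-2 the capitals mark the longer palindrome TCACGTGA.
Vha55: gtcatgtgacggCACGTGacgtcacagcag
Vha68-2: tcaaagctctgTCACGTGAaacgaaagctc
Atg4a: tttgaagtcccgCACGTGcaattttgaagt

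Max-GFP was found at 23 of the 54 promoters (42.6%, 95% Wilson interval 30.3 to 55.8), against 25.9% of all protein-coding genes (3613 genes). Bound members comprised 15 of the 33 Vha genes (45.5%, 29.8 to 62.0) and 8 of the 21 autophagy genes (38.1%, 20.8 to 59.1). The interval of the Vha genes lies above the share of all genes and that of the autophagy genes includes it. The first does not hold from 1 replicate alone: without replicate 2 the Vha share was 39.4% (24.7 to 56.3) against 25.0% of all genes, and without replicate 3 it was 36.4% (22.2 to 53.4) against 26.0%. The members counted as bound there were those whose best summit ranked 4712 or better in the remaining replicate. With each summit given only to the gene with the nearest start, 11 of the 54 members were bound (20.4%, 11.8 to 32.9) against 19.0% of all genes, so the excess over all genes was lost. The Vha share was then 24.2% (12.8 to 41.0), and the autophagy share, 14.3% (4.98 to 34.6), lay below that of all genes. The best score per bound gene had a median of 175.6 over the members (95% order-statistic interval 124.8 to 212.5), and the interval includes the median of 155.4 over all bound genes. Between the groups, the median was 240.1 for the 8 autophagy genes and 125.8 for the 15 Vha genes, a difference that was not tested. The best summits of all 8 autophagy genes and of 11 of the 15 Vha genes also lay within 500 bp of a start of another gene. Those scores therefore do not belong to the members alone. All 23 had a summit in the window in both replicate lists, as did 3584 of the 3613 bound protein-coding genes.

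**Figure D1:**
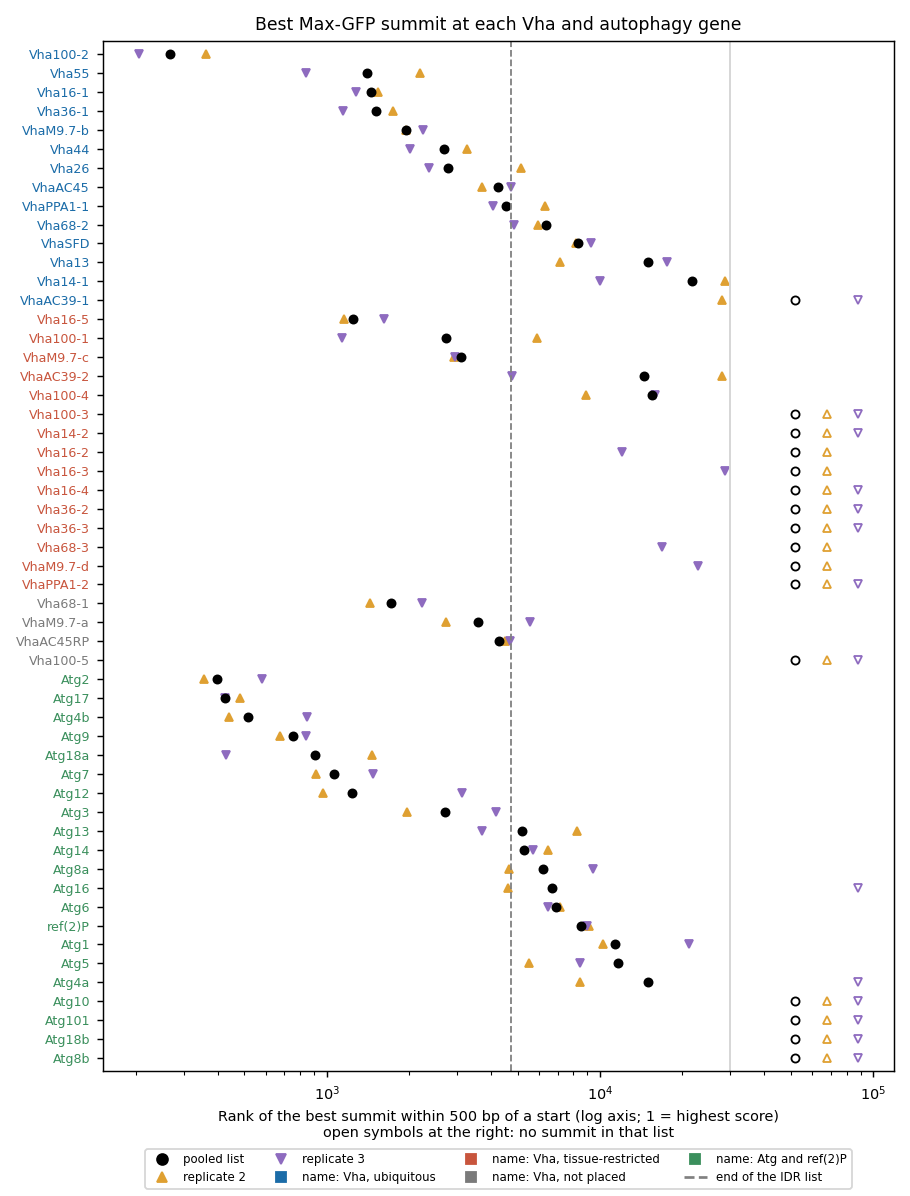
Rank of the best summit within 500 bp of a start for each of the 54 genes, on a log axis, in the pooled list (circles), replicate 2 (upward triangles) and replicate 3 (downward triangles). Open symbols at the right stand for no summit in that list, the dashed line marks rank 4712, the grey line rank 30000, and the colour of a name gives its class. The 23 bound members are those with a circle left of the dashed line, and most of the tissue-restricted Vha genes have open symbols only or a single filled replicate symbol.

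Of the 13 V1 genes, 5 were bound, with scores from 123.6 to 181.9. Vha55 encodes subunit B of the catalytic ring, and its summit at 12627867 on 3R, 38 bp upstream of its nearest start, had a pooled score of 181.9, with 89.8 in replicate 2 (rank 2201) and 94.6 in replicate 3 (rank 838). Vha36-1, subunit D of the central stalk, had 175.6 at 15541345 on 2R, with 101.5 in replicate 2 (rank 1752) and 80.2 in replicate 3 (rank 1147). Both stood higher in replicate 3 by rank. Vha68-1, a gene of the catalytic subunit A, had 165.0 at 13004225 on 2L, with 112.7 in replicate 2 (rank 1445) and 54.5 in replicate 3 (rank 2231). Vha44, subunit C, which links the sectors, had 125.8 at 16336700 on 2R, with 71.5 (rank 3252) and 58.3 (rank 2024) in replicates 2 and 3. Vha26, subunit E of the peripheral stalk, had 123.6 at 5591565 on 3R, with 53.7 (rank 5159) and 52.8 (rank 2364). Vha26 alone among the 5 fell outside rank 4712 in a replicate.

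The other V1 genes had weaker summits or none. Vha68-2, the subunit A gene placed as ubiquitous, ranked 6351 in the pooled list with a score of 70.3, and 5921 and 4860 in replicates 2 and 3. VhaSFD, the regulatory subunit H, ranked 8300 (57.4), Vha13, subunit G, 15038 (36.9), and Vha14-1, subunit F, 21767 (28.2), the last with its summit in coding sequence. So each of the 8 ubiquitous V1 genes had a pooled summit at a start, as did 57.2% of all protein-coding genes, and 4 of them had an IDR summit. None of the 4 tissue-restricted V1 genes had a summit in the pooled list, and with 4 genes the Wilson interval reaches 49.0%. Within subunit A the genes Vha68-1, Vha68-2 and Vha68-3 lie on the same arm, and only replicate 3 had a summit at Vha68-3, at rank 16858.

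Of the 18 V0 genes, 8 were bound, and they included both the highest and the lowest score of the pump. Vha100-2 encodes the large membrane subunit a, and its summit at 18397237 on 3R scored 382.9 (rank 267), with 209.9 in replicate 2 (rank 361) and 171.3 in replicate 3 (rank 205). The peak spans 18397082 to 18397335. Its summit lies in an intron of Vha100-2, 309 bp upstream of the nearest Vha100-2 start, and in the 5′ UTR of Vti1b, a SNARE gene on the other strand. Vha100-2 had another IDR summit, at 18399594, 425 bp upstream of another of its starts, with a score of 150.6 (rank 1991). It was 1 of 2 members with more than 1 IDR summit in the window, and the share over all bound genes was not counted. Vha100-1, the neuronal subunit a, had 124.8 at 29131078 on 3R, with 49.2 in replicate 2 (rank 5887) and 80.7 in replicate 3 (rank 1134). Its ranks were 5.19-fold apart, and 2.15% of all bound genes had ranks further apart.

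The proton-carrying ring is made of c and c'' subunits. Vha16-1, the main c gene, had 179.6 at 6633218 on 2R, with 109.4 in replicate 2 (rank 1537) and 75.6 in replicate 3 (rank 1282). Vha16-5, a c gene placed as tissue-restricted, had 195.8 at 10737326 on 2L, with 125.8 (rank 1156) and 66.3 (rank 1620). That summit lies 283 bp from the Vha16-5 start and 19 bp from the start of CG12299, at the 5′ end of the strip printed above. VhaPPA1-1, the c'' gene, had 89.5 at 14904211 on 3R (rank 4545), the lowest of the bound members, with 46.8 (rank 6301) and 37.5 (rank 4048). The other c and c'' genes, all placed as tissue-restricted, had no pooled summit.

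Subunit e is the smallest of the V0 sector, and 3 of its 4 genes were bound. VhaM9.7-b, placed as ubiquitous, had 152.4 at 21539511 on 3L, with 95.9 in replicate 2 (rank 1948) and 54.4 in replicate 3 (rank 2244). VhaM9.7-c had 114.8 at 4186918 on 3L, with 75.9 (rank 2930) and 46.3 (rank 2959), the closest pair of replicate ranks among the members. VhaM9.7-a had 105.6 at 4262657 on 3L, with 79.0 (rank 2734) and 30.0 (rank 5567). The summit of VhaM9.7-c lies outside that gene and within introns of CG18675 and Teh2. The subunit d genes had no IDR summit. VhaAC39-2 ranked 14459 in the pooled list (38.0), and VhaAC39-1, the only ubiquitous Vha gene with no pooled summit, had a summit in replicate 2 alone, at rank 27924. Among the other subunit a genes, Vha100-4 ranked 15503 (36.1).

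Both accessory genes, of the Ac45 family, were bound near the end of the list. VhaAC45 had 94.0 at 9207386 on 2R, with 66.3 in replicate 2 (rank 3700) and 33.6 in replicate 3 (rank 4715). VhaAC45RP had 93.1 at 30166574 on 3R, with 58.7 (rank 4513) and 33.8 (rank 4688). The replicates thus ranked each of the pair alike, and VhaAC45 stood just outside rank 4712 in replicate 3.

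The genes placed as ubiquitous and those placed as tissue-restricted differed in their share. The classes are not matched by subunit, because 5 of the ubiquitous genes are the only gene of their subunit and have no paralogue. Of 14 genes placed as ubiquitous, 9 were bound (64.3%, 38.8 to 83.7), against 3 of 15 placed as tissue-restricted (20.0%, 7.05 to 45.2), a difference of 44.3 percentage points (95% Newcombe interval 8.43 to 67.6). With weaker summits counted, 13 of the 14 and 5 of the 15 had a summit in the pooled list. The 3 bound tissue-restricted genes were Vha16-5, VhaM9.7-c and Vha100-1. The 4 genes not placed in either class, of which Vha68-1, VhaM9.7-a and VhaAC45RP were bound, set how firm the difference is. Counted as ubiquitous they gave 46.7 points (12.6 to 68.1), and counted as tissue-restricted 32.7 points, with an interval that includes no difference (−1.26 to 58.0). The classes come from general knowledge of fly expression, and no expression data were analysed here. They were set with earlier results of these data known, and the intervals do not allow for that. A different split, by the number of genes per subunit, needs no knowledge of expression. Subunits with 1 gene (3 of 5 bound) against subunits with several (12 of 28) gave 17.1 points (−24.0 to 49.8). Ubiquitous genes stand on both sides of that split, so it does not measure the difference between the classes. With each summit given to the nearest start only, 4 ubiquitous and 1 tissue-restricted gene were bound (21.9 points, −6.73 to 48.6), among the higher-scoring IDR peaks 5 and 1 (29.0, −1.14 to 55.2), and with 1 canonical start per gene 7 and 3 (30.0, −4.24 to 56.6). These 3 intervals include no difference.

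**Figure D2:**
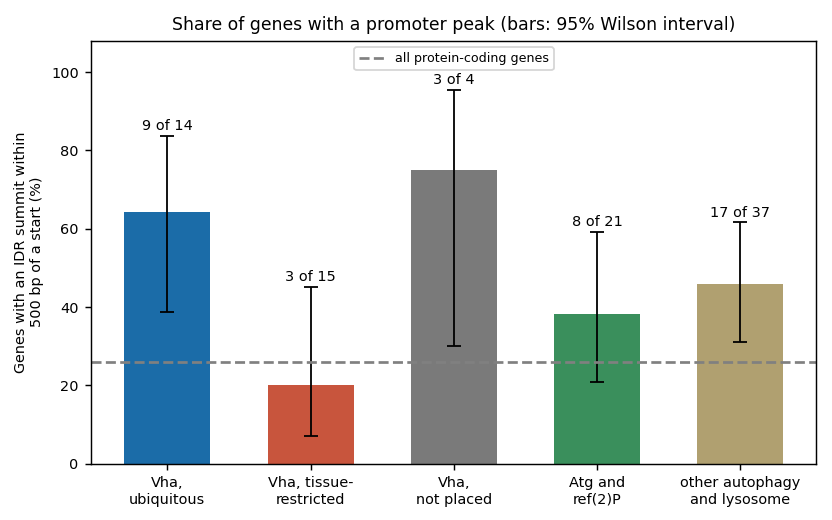
Percentage of genes with an IDR summit within 500 bp of a start in each class, with 95% Wilson intervals as error bars and the counts above. The dashed line is the share of all protein-coding genes, 25.9%. The intervals of the ubiquitous Vha genes, of the Vha genes not placed and of the other autophagy and lysosome genes lie above it. Those of the tissue-restricted Vha genes and of the autophagy members include it.

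A neighbouring promoter was counted as well. A head-to-head neighbour is here another gene on the opposite strand whose start lies at most 1000 bp upstream of a start of the member, an analysis chosen after the summits had been seen. Of all protein-coding genes 5052 had one, and 48.1% of those were bound, against 13.3% of the genes without one. Such a neighbour was present at 9 of the 14 ubiquitous Vha genes, 3 of the 15 tissue-restricted ones and 16 of the 21 autophagy genes. Among ubiquitous Vha genes 7 of the 9 with a neighbour and 2 of the 5 without were bound, and among tissue-restricted ones 2 of the 3 and 1 of the 12. The difference between the classes was 11.1 points among genes with a neighbour (95% Newcombe interval −31.3 to 59.7) and 31.7 points among those without (−7.44 to 69.2), and both intervals include no difference. Over all members 19 of 30 with a neighbour were bound (63.3%) and 4 of 24 without (16.7%). Among autophagy genes alone these were 8 of 16 and 0 of 5, against the 48.1% and 13.3% of all genes. Its part in the difference between the classes was not tested.

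Autophagy members are described in the order in which their products act. Of the 4 genes of the Atg1 kinase complex, which starts autophagy, only Atg17, its scaffold, was bound. Atg17 had a score of 317.2 at 5669506 on 3R (rank 424), with 184.4 in replicate 2 (rank 481) and 128.7 in replicate 3 (rank 423). Atg13, the regulatory subunit, had 81.3 and ranked 5196, the nearest of all members below the IDR list, with rank 8226 in replicate 2 and 3701 in replicate 3. The threshold thus fell between VhaPPA1-1 at 89.5 and Atg13 at 81.3. Atg1, the kinase itself, ranked 11319 (45.5), with 10256 and 21241 in replicates 2 and 3. Neither phosphatidylinositol 3-kinase member was bound, with Atg14 at rank 5265 (80.5) and Atg6, the fly Beclin, at 6924 (66.2).

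Of the 4 genes for lipid supply to the growing membrane 3 were bound (75.0%, 30.1 to 95.4), and with 4 genes the interval overlaps that of every other step. Atg2, a lipid transfer protein in yeast and human, had 326.9 at 2774095 on 3L (rank 398), with 210.4 in replicate 2 (rank 357) and 111.9 in replicate 3 (rank 578), and another IDR summit at 2774299, 39 bp upstream of its start, with 230.5 (rank 901). The higher summit lies 88 bp from the start of CG12093 and 243 bp from that of Atg2. Atg9, the membrane protein of the vesicles that seed the autophagosome, had 250.8 at 16294276 on 2R (rank 754), with 161.1 (rank 676) and 94.4 (rank 842) in replicates 2 and 3. Atg18a, which binds the lipid made by the kinase, had 229.5 at 8186856 on 3L (rank 908), 1 bp upstream of its start, with 111.9 in replicate 2 (rank 1464) and 127.8 in replicate 3 (rank 427). The ranks of Atg18a were 3.43-fold apart, with replicate 3 higher. No summit of the pooled list lay at Atg18b.

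The conjugation systems contributed the other 4 bound genes. Atg7 is the E1-like enzyme that both systems share, and it had 212.5 at 18625174 on 2R (rank 1063), with 141.9 in replicate 2 (rank 914) and 69.5 in replicate 3 (rank 1475). Atg12, the ubiquitin-like protein, had 196.8 at 12136808 on 3L (rank 1234), with 138.5 (rank 968) and 44.7 (rank 3126), and stood 3.23-fold higher by rank in replicate 2. A weaker pooled summit of Atg12, at rank 8706, lay 57 bp inside the gene. Of the partners of Atg12, Atg16 ranked 6696 (67.7) with no summit in replicate 3, Atg5 ranked 11700 (44.4), and Atg10 had none.

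Of the 5 genes for Atg8 and its processing, Atg4b and Atg3 were bound. Atg4b, a protease that trims and releases Atg8, had 291.6 at 15357120 on 3R (rank 515), with 190.5 in replicate 2 (rank 440) and 94.2 in replicate 3 (rank 846). Atg3, the E2-like enzyme, had 125.4 at 18748441 on 3L (rank 2709), with 95.7 (rank 1961) and 36.9 (rank 4156). Both stood higher in replicate 2, as did 6 of the 8 bound autophagy genes and 7 of the 15 bound Vha genes. Over all bound genes with a summit in both replicates, 1934 of 3584 did. Atg8a ranked 6208 (71.6), with its summit at a start, and Atg4a 15055 (36.9) with no summit in replicate 3. Atg8b had no summit in any list. The receptor gene ref(2)P ranked 8538 (56.3), with 9098 and 8996 in replicates 2 and 3.

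**Figure D3:**
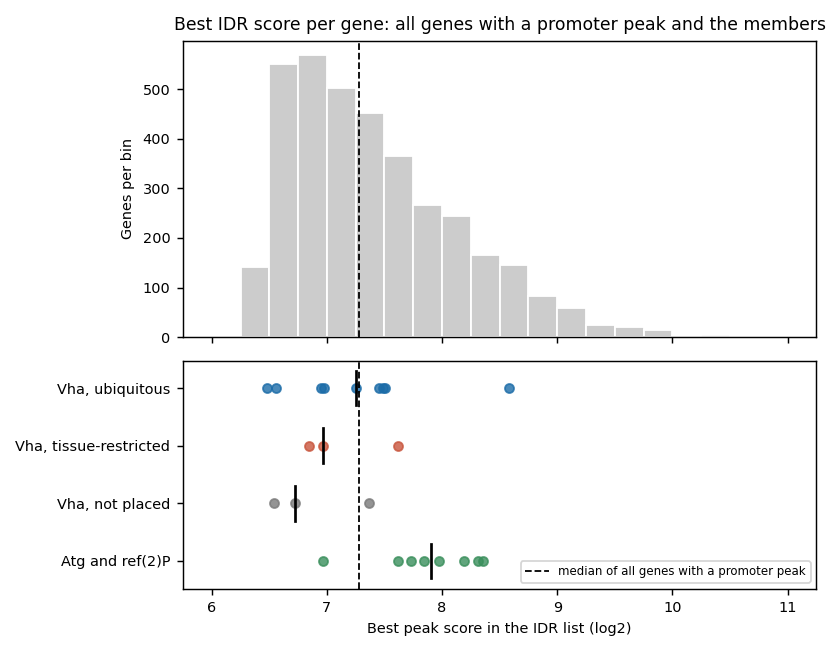
The upper panel counts all bound protein-coding genes by the log2 of their best IDR score, and the lower panel shows each bound member by class, with a bar at the class median. The dashed line is the median of all bound genes, 155.4 before the log, and 7 of the 8 autophagy genes lie to its right, Atg3 at 125.4 being the exception.

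Weaker summits were found at unbound members at a share near that of other genes. Of the 31 unbound members 15 had a pooled summit below the IDR list (48.4%), against 42.2% of all unbound protein-coding genes, and 13 of the 15 had one in both replicates as well (86.7%), against 66.9% of all unbound genes with a weaker summit. The counts were 4 of 5 ubiquitous Vha genes, 2 of 12 tissue-restricted ones and 9 of 13 autophagy genes. No list held a summit at 11 members. Another 4, all tissue-restricted Vha genes, had one in replicate 3 alone, at ranks from 12043 to 28733. The IDR summit nearest to a start lay 888 to 76027 bp away from the unbound members, with a median of 6980 bp.

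The replicates ranked members about as evenly as other genes. Of the 23 bound members 16 had replicate ranks within 2-fold of each other (69.6%), against 70.5% of all bound genes, and the median fold between the ranks was 1.61 against 1.55. The widest gaps were at Vha100-1, Atg18a and Atg12, followed by Vha55 with 2.63.

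Every bound member had its best summit upstream of its nearest start, against 84.2% of all bound genes. The summits lay 1 to 351 bp away, and the median position was −150 bp, against −116 bp over all bound genes. A start of another gene was also within 500 bp of the summit at 19 of the 23 members (82.6%), against 61.1% of all bound genes, and all 8 bound autophagy genes were among them. All 19 neighbours lie on the opposite strand. In 17 pairs the summit lay between the starts, and in 13 pairs the neighbour's start was the nearer one. Those peaks cannot be assigned to the member alone.

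**Figure D4:**
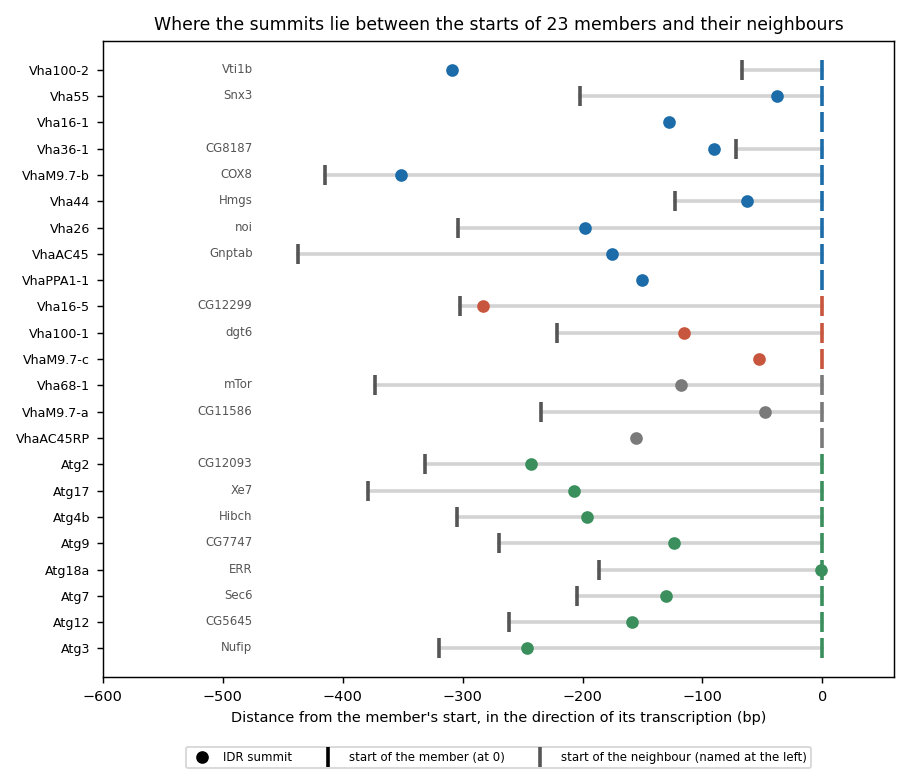
Position of the best IDR summit (dots) relative to the nearest start of each bound member at 0, in bp along its direction of transcription, with the start of the neighbour on the opposite strand as a grey bar and its name at the left. The dots lie from 351 to 1 bp upstream, 17 of them between both starts, and 4 members have no neighbour in the window.

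The neighbours have varied roles. In 6 pairs the member's start was the nearer one, at Vha55, Vha68-1, VhaAC45, VhaM9.7-a, Atg9 and Atg18a. The summit of Vha68-1 lay 118 bp from its own start and 255 bp from that of mTor, the growth-control kinase that holds autophagy back. The summit of Vha55 lay 164 bp from the start of Snx3, a sorting nexin, and that of VhaAC45 262 bp from that of Gnptab. Vha44 shares its summit with Hmgs, an enzyme of the mevalonate pathway whose start lay 60 bp away, and Vha26 with noi, a splicing factor, 106 bp away. Others leaned further to the neighbour. The summit of VhaM9.7-b lay 64 bp from COX8, a subunit of cytochrome c oxidase, and that of Vha36-1 18 bp from CG8187. Atg18a shares its summit with ERR, a nuclear receptor, 185 bp away, Atg7 with Sec6 of the exocyst, 75 bp away, Atg4b with Hibch, 109 bp away, and Atg3 with Nufip, 74 bp away. Those without any neighbour in the window were Vha16-1, VhaM9.7-c, VhaAC45RP and VhaPPA1-1. When each summit was given to the gene with the nearest start only, 11 of the 23 remained bound, 8 Vha and 3 autophagy genes, against 2649 of the 3613 over all genes.

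The E-box lay within 100 bp of the summit at 3 of the 23 members (13.0%), against 7.67% of the 2855 promoter summits of the IDR list. They were Vha44, with the centre of the match 19 bp from the summit, VhaAC45RP at 15 bp and Vha55 at 97 bp, and none was an autophagy gene. The longer palindrome TCACGTGA, the core of the element known for lysosome genes in mammals, contains the E-box and lay at 1 of the 23, Vha44, against 0.210% of promoter summits. The summit and both matches of Vha44 lie at a start that is not its canonical one, which is 2718 bp away from the summit. They also lie in the 5′ UTR of Hmgs, on the other strand, whose start is 60 bp from the summit, against 63 bp for Vha44. So the matches cannot be assigned to Vha44 alone. In the window from 250 bp upstream to 50 bp downstream of any start the E-box was present at 6 of the 54 members (11.1%), against 5.34% of all protein-coding genes. Besides the bound genes these were Vha68-2, Atg4a and VhaM9.7-d. The Vha68-2 copy of TCACGTGA lay 865 bp from the best-ranked of the weaker summits of that gene, and the Atg4a E-box 68 bp from the weaker summit of Atg4a. VhaM9.7-d carries the match in coding sequence and had no pooled summit. All matches were searched on both strands and describe letters, not sites of binding.

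No DRE (TATCGATA) lay within 100 bp of a member summit, against 9.53% of all promoter summits, while within 200 bp it was at 4 of the 23 (17.4%), against 15.1%. In the Atg12 strip above the match starts 94 bases past the summit and runs just beyond the 100 bp limit. Around the starts of autophagy genes the DRE was present at 7 of the 21 (33.3%), against 10.2% of all genes, namely Atg3, Atg7, Atg12, Atg13, Atg14, Atg17 and ref(2)P. Among Vha genes it was at Vha55 and VhaSFD. Ohler 7 (CATCNCTA), a core promoter element, lay within 100 bp of the summit at Atg9, Vha68-1 and VhaM9.7-b (13.0%, against 7.18%). Ohler 1 (GGTCACAC, 4.35% against 6.58%) and Ohler 6 (GGTATTTT, 4.35% against 4.31%) each lay at Atg3 only. The DRE was not alone around the starts of autophagy genes. Ohler 6 was present at 5 of the 21 (23.8%, against 6.27% of all genes) and Ohler 7 at 4 (19.0%, against 7.45%). Ohler 1 was at 2 of the 21 (9.52%, against 8.71%) and at 4 of the 14 ubiquitous Vha genes (28.6%). The GC content within 50 bp of the summit had a median of 32.7% over the member summits, from 17.8% at Atg7 to 58.4% at Vha44, against 34.7% over all promoter summits.

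Other genes of autophagy and of the lysosome, on lists drawn from general knowledge, were bound at 17 of 37 (45.9%, 31.0 to 61.6), against 25.9% of all protein-coding genes. Without replicate 2 the count was 14 (37.8%, 24.1 to 53.9, against 25.0%), and the interval included the share of all genes. Of 3 further subunits of the phosphatidylinositol 3-kinase complex, Vps15 (186.5) and Uvrag (110.6) were bound, and Uvrag had no summit in replicate 3. Of 13 genes for fusion of the autophagosome with the lysosome 7 were bound, led by the SNARE gene Snap29 (283.2), the tether gene Epg5 (206.8) and Vps39 of the HOPS complex (185.6). The others were car, Syx17, Vps16A and Rab7, and all 13 had at least a pooled summit. Of the pair of Rabconnectin genes, whose products help assemble the pump, Rbcn-3B was bound (96.9).

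Of 7 genes for lysosome membrane proteins 2 were bound (28.6%, 8.22 to 64.1), the cholesterol transporter gene Npc1a (126.3) and spin (100.1). Of 11 genes for hydrolases and other lumenal proteins 4 were bound (36.4%, 15.2 to 64.6), led by the hexosaminidase gene Hexo2 (241.9) and the cathepsin genes CtsL1 (161.4) and CtsB (121.5), with Ppt1 as the remaining one. Both intervals include the 25.9% of all genes. Mitf had an IDR summit with a score of 109.1 on chromosome 4, 26 bp upstream of a start, with rank 1864 in replicate 2 and no summit within 500 bp in replicate 3.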

How the data were processed

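Per the labels, ChIP-seq with an antibody against GFP was made on 2 biological replicates of Max-GFP embryos. The authors deposited peak lists (per replicate, pooled, and after the IDR threshold) with a score per peak and the offset of the summit. The score ranks peaks within a list and has no unit that carries between lists. Which aligner and caller were used is not given in the sources used here. Lists on dm3 were not used. Because the depth is unknown, no precision could be given for a single score beyond the values of both replicates.

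Summits of the dm6 lists were set against the starts of protein-coding genes in Ensembl annotation 115, within 500 bp, with Python 3.11.15, numpy 2.4.6, scipy 1.17.1 and matplotlib 3.10.9. Replicate values are the best summit of that replicate's list in the same window. Shares have Wilson intervals and their difference a Newcombe interval, both at 95%. With 1 group no test between conditions was made and no p-value is given. The 6 motifs were the E-box CACGTG, TCACGTGA, TATCGATA, GGTCACAC, GGTATTTT and CATCNCTA, searched on both strands of the Release 6 genome of RefSeq. The code that joins summits to starts was tested on simulated data.

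The members, the classes of Vha genes, the other lists and the analyses were chosen with earlier results of these data known. Head-to-head neighbours, further summits in the window, GC content, the alternatives for the other lysosome genes and the shares beside all genes under each setting were added after the summits of the members had been seen. Every bound member is named, unbound members are named where a pooled summit lay in the window, and a gene that shares a summit is named with it. Bound genes of the other lists are named, with values for at most 3 per list. Vha and Atg genes beyond those were named only to complete a family, after their values had been seen. Of the names placed in classes, VhaM8.9 and VhaAC45L matched no gene under the rule and are not analysed here.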

Additional observations from a re-analysis of the deposited data

How the results depend on the processing

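Of 91 alternative values over 14 results, 79 stayed within 1.5 times a count, or within the interval of a share, difference or median, 11 moved and 1 reversed. Those intervals are wide, so a value that stayed can still be much lower. The Vha share minus that of all genes counts as such, though it fell from 19.5 to 5.25 points with the nearest start only. With only the higher-scoring IDR peaks the bound genes were 7 Vha, 5 ubiquitous Vha, 1 tissue-restricted Vha, 7 other autophagy and lysosome genes (3.43 percentage points above all genes) and 2160 over all genes, while 7 autophagy members remained. With the nearest start only they were 8 Vha, 3 autophagy, 4 ubiquitous and 1 tissue-restricted. The share of the members minus that of all genes then fell from 16.7 to 1.37 points, and that of the autophagy genes turned from 12.2 to −4.71. The first setting uses fewer peaks and the second gives each summit to 1 gene, so lower counts follow by construction. The Vha interval included the share of all genes under 4 of 8 settings: both of these and either replicate alone. The counts without replicate 2 or without replicate 3 were 12 to 13 Vha, 9 to 10 autophagy, 7 to 8 ubiquitous, 2 to 3 tissue-restricted, 14 to 17 other autophagy and lysosome genes, 3484 to 3625 over all genes and 16 to 17 weaker unbound members. Vha100-1, Vha26 and VhaPPA1-1 were lost without replicate 3, which gained Atg8a and Atg16, and VhaAC45 and VhaM9.7-a without replicate 2, which gained Atg13. A window of 250 bp lost Vha100-2, Vha16-5 and VhaM9.7-b, and 1 canonical start per gene lost Vha16-1 and Vha44. The difference between ubiquitous and tissue-restricted genes ran from 11.1 to 51.4 points and was 36.7 to 37.1 without a replicate. Its interval included 0 with the canonical start, the nearest start, the higher-scoring peaks and the unplaced genes as tissue-restricted. It also did so for genes with or without a head-to-head neighbour taken alone. The interval for subunits with 1 gene against several included 0 as well. That split is counted among the alternatives but does not compare the classes. No paired analysis was possible because there is only 1 group. Without read counts the depth that limits weak peaks cannot be stated.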
